A study of Mus musculus with 6 samples.

Results

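The miR-322, miR-503, miR-351, miR-542 and miR-450 cluster is a run of 7 miRNA hairpins on the X chromosome, and 8 of its mature miRNAs were taken here from the 707 that the authors counted in mouse white adipose tissue (WAT). The 8 rows were chosen by their miRBase accession and not by their counts: miR-322-5p (MIMAT0000548), miR-322-3p (MIMAT0000549), miR-503-5p (MIMAT0003188), miR-351-5p (MIMAT0000609), miR-542-3p (MIMAT0003172), miR-450a-5p (MIMAT0001546), miR-450b-5p (MIMAT0003511) and miR-450b-3p (MIMAT0003512). All 8 passed the filter on low counts that left 633 miRNAs for testing. The study compared 3 libraries of a control group with 3 libraries of a chronic intermittent hypoxia (CIH) group. All mice were male and ApoE-deficient (ApoE-/-), so control and CIH mice alike lacked apolipoprotein E, a carrier protein needed to remove lipoproteins from plasma, and the groups used here include no wild-type mice. CIH, a model of obstructive sleep apnea, lowered the inspired oxygen in repeated cycles from 21% to about 6% for 8 weeks. The age of the mice, the fat depot and the number of animals behind each library are not given in the sources used here, so the spread between libraries may be in part technical.

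A hairpin precursor is cut into a duplex, of which one strand, the 5p or the 3p arm, is loaded into the silencing complex and the other is mostly degraded. Bases 2 to 8 of the mature miRNA, the seed, pair with target mRNAs. miR-322 is the mouse counterpart of human miR-424, and with miR-503 it restrains the cell cycle through cyclins and related kinases. It is also known to be induced by hypoxia in endothelial cells. The other members are less studied, and miR-450b-3p is one of the miRNAs that the study measured by RT-qPCR. The study reported it as downregulated under CIH, both by sequencing and by RT-qPCR. The study's RT-qPCR results print the name as miR-450-3p, and its primer list prints miR-450b-3p.

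The hairpins lie on the minus strand of chromosome X of GRCm38 (GENCODE release M21) within 6353 bases. In the direction of transcription they run from Mir322 (53054255 to 53054349) through Mir503 (53053984 to 53054054) and Mir351 (53053255 to 53053353) to Mir542 (53049403 to 53049487), Mir450-2 (53048299 to 53048367), Mir450-1 (53048154 to 53048244) and Mir450b (53047997 to 53048078). A gap of 3767 bases separates Mir351 from Mir542, so that the 3 upstream hairpins fall within 1095 bases and the 4 downstream hairpins within 1491 bases. RefSeq places the upstream hairpins inside the noncoding gene C430049B03Rik (53053112 to 53057190), whereas the GENCODE model of that gene spans only 53055046 to 53057190 and overlaps no hairpin. Neither annotation has a host gene for the 4 downstream hairpins.

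The mature sequences, from RefSeq on GRCm38.p6, show what each row of the counts reads. The seed is in capitals, and every sequence runs 5′ to 3′.
miR-322-5p: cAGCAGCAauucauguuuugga
miR-322-3p: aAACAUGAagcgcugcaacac
miR-503-5p: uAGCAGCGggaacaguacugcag
miR-351-5p: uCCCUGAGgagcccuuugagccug
miR-542-3p: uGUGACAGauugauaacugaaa
miR-450a-5p: uUUUGCGAuguguuccuaauau
miR-450b-5p: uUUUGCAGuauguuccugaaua
miR-450b-3p: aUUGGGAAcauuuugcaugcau
The 8 seeds were all different. The seed of miR-322-5p was shared by 9 other mature miRNAs of the RefSeq table, among them miR-15a-5p, miR-16-5p, miR-195a-5p and miR-497a-5p, and that of miR-351-5p by 4 others, among them miR-125a-5p and miR-125b-5p. The seed of miR-503-5p belonged to no other entry and differed from that of miR-322-5p at 1 base, A8G, where positions count from 1 at the 5′ end and the base of miR-322-5p stands first. The mature miR-450a-5p is encoded by both Mir450-1 and Mir450-2, so its count does not tell these hairpins apart.

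miR-450b-3p has a close relative within the cluster. miR-450a-1-3p, the 3p arm of the neighbouring hairpin Mir450-1, has the same seed and differs from it at 2 of 22 bases, G19A and C20A, with the base of miR-450b-3p first.
miR-450b-3p: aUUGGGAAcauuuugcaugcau
miR-450a-1-3p: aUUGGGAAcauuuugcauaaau
Forward primer: gggATTGGGAACATTTTGC
In the miRNA-specific primer of the study's RT-qPCR, which is DNA, the capitals mark the 16 bases that match a mature sequence, and they match both miR-450b-3p and miR-450a-1-3p from their first base. The matched part ends before the 2 positions at which these miRNAs differ. The primer for reverse transcription was not compared, so how far the assay tells them apart was not tested. How the authors' counting divided reads between such relatives is not given in the sources used here. No other row of the file had the same counts as any of the 8 members.

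The libraries held between 636963 and 4783768 counts, and the most abundant miRNA took between 20.7% and 34.9% of a library. Control 1 and Control 2 stood apart from the other 4 libraries. Over the 633 miRNAs tested, Control 3 correlated with the CIH libraries at 0.958 to 0.974, as high as the CIH libraries with each other (0.952 to 0.972), whereas Control 1 and Control 2 correlated with these 4 libraries at 0.595 to 0.712. Control 1 and Control 2 correlated with each other at 0.831, below every pair among the other 4 libraries. These correlations are of log2 CPM, the count scaled to a common library size, across miRNAs, which are not independent replicates. Of the 707 miRNAs, 487 and 552 were detected in Control 1 and Control 2, and 631 to 649 in the other libraries. A group of 32 miRNAs was at least 100-fold lower in both of these libraries than in each of the other 4, where all of them exceeded 100 CPM, and 0 were apart in the other direction. These were 32 of the 633 miRNAs tested, and none of the 8 members was among them. Only miR-322-5p and miR-322-3p reached 100 CPM in all of the other 4 libraries. The other members were too low to be listed, so their absence says nothing about them. The most abundant of the 32, MIMAT0000381, was at 98.0 and 249.7 CPM in Control 1 and Control 2 and at 57387 to 83827 CPM in the other libraries. This count was made after the values were seen, and no cell type markers could be named among these miRNAs. Results are therefore given with all 6 libraries and without Control 3. Leaving out Control 3 keeps Control 1 and Control 2 as the only controls, and this run was singled out after the correlations were seen. The part of this difference between control libraries in the results was not tested.

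With all 6 libraries, no member passed the test in either direction. In edgeR's quasi-likelihood test, the Benjamini-Hochberg adjusted p-values of the 8 members lay between 0.882 and 0.988. At an unadjusted p-value under 0.05 with a change of at least 1.5-fold, 0 of the 8 members were lower and 0 were higher, where 2.05% and 0.474% of all miRNAs tested were. The share of all 633 miRNAs below 0.05 was 0% by adjusted and 2.53% by unadjusted p-value. Of the other tools, DESeq2, limma voom and limma on log2(CPM + 1) also gave 0 members at an unadjusted p-value under 0.05, and edgeR's exact test gave 1, miR-450b-3p. With a change of at least 1.5-fold, that test called 3% of all miRNAs lower and 1.58% higher. The log2 fold change of CIH over control was above 0 for 4 members and below 0 for 4, with a median of -0.03, and the median of all miRNAs tested was 0.07. The groups overlapped in level for all 8 members, where 3% of all miRNAs did not overlap with lower and 5.06% with higher CIH levels.

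Without Control 3, miR-450b-3p was the only member with an adjusted p-value under 0.05, with a log2 fold change of -3.09 (standard error 0.67, edgeR adjusted p = 0.0264). With library totals in place of TMM it was -2.53, with an edgeR adjusted p of 0.145, so the call depended on the scaling. It also depended on which control libraries were kept, and against Control 3 alone the log2 fold change was 0.18. With TMM and without Control 3 the call is 1 of 8 members. Of all miRNAs tested, 18.6% were then called in either direction, 2.53% lower and 16.1% higher. miR-351-5p passed the unadjusted criteria alone, with a log2 fold change of 1.51 (standard error 0.59, edgeR adjusted p = 0.126). At those criteria 1 of 8 members was lower and 1 was higher, and among all miRNAs 11.8% were lower and 25.8% higher. With 8 members, a single call is too few to set the cluster apart from these shares. With TMM and without Control 3, miR-450b-5p and miR-450b-3p had CIH levels below those of both remaining control libraries. miR-503-5p and miR-351-5p had levels above them. The shares of all miRNAs whose groups did not overlap in these directions were 17.7% and 33.5%. With library totals the groups of miR-450b-5p overlapped, as Control 1 was then below every CIH library.

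**Figure D1:**
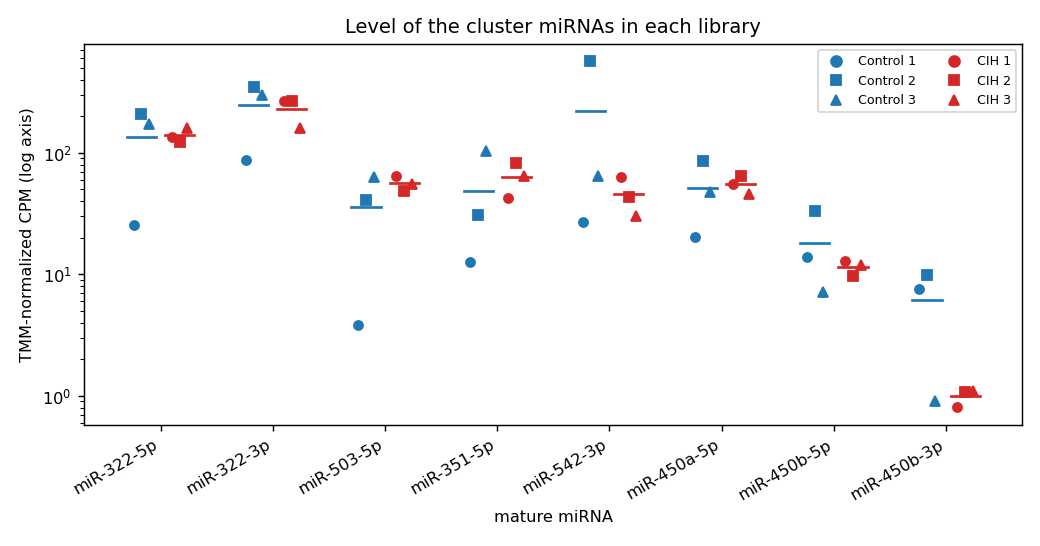
Level of each of the 8 mature miRNAs (x axis) in every library, as TMM-normalized CPM on a log axis, with control libraries in blue, CIH libraries in red and a bar for the mean of each group. Control 1 is lowest for miR-322-5p, miR-322-3p, miR-503-5p, miR-351-5p, miR-542-3p and miR-450a-5p, Control 2 is far above all others for miR-542-3p, and the 3 CIH libraries lie close together.

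miR-322-5p, the arm with the seed of the miR-15 and miR-16 family, was counted 20, 866 and 190 times in Control 1, 2 and 3, and 168, 113 and 148 times in CIH 1, 2 and 3, the order kept for all values that follow. After TMM normalization, which corrects library totals for differences in composition, these were 25.5, 208.9 and 171.3 CPM in the control group and 134.9, 122.1 and 160.5 in the CIH group. The CIH libraries lay within the range of the control libraries, of which Control 1 was low. Its means were 135.2 ± 96.9 CPM (SD, n = 3) and 139.2 ± 19.6 CPM (SD, n = 3), with a log2 fold change of 0.04 (standard error 0.81, edgeR adjusted p = 0.988).

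miR-322-3p, the other arm of the same hairpin, was counted 68, 1453 and 334 times in Control 1, 2 and 3, and 332, 248 and 147 times in CIH 1, 2 and 3. It was the most abundant member of the CIH group by mean, at 231.3 ± 62.3 CPM (SD, n = 3), against 246.1 ± 140.3 CPM (SD, n = 3) in the control group. The groups overlapped, with a log2 fold change of -0.09 (standard error 0.70, edgeR adjusted p = 0.966).

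The arms of the Mir322 hairpin are shown in capitals, 5p first, on GRCm38.p6 (chrX:53054255-53054349, minus strand).
Mir322: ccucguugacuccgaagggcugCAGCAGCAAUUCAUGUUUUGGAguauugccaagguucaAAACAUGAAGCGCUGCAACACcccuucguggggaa
The 5p arm took 22.7%, 37.3% and 36.3% of the counts of both arms in the controls, and 33.6%, 31.3% and 50.2% under CIH. The 3p arm was thus the more counted one in 5 libraries, and the arms were equal within counting error in CIH 3, where the exact (Clopper-Pearson) 95% interval of the 5p share ran from 44.3% to 56.0%. The mean log2 ratio of 5p to 3p, with 0.5 counts added to each arm, was -1.10 ± 0.56 (SD, n = 3) for the controls and -0.70 ± 0.62 (SD, n = 3) for CIH. The difference of 0.40 was smaller than the spread between libraries (two-sided exact permutation test, p = 0.6, smallest possible 0.1). This ratio does not depend on the scaling between libraries, but it does depend on how well each arm was ligated and amplified.

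miR-503-5p, which acts with miR-322 on cell cycle genes, was counted 3, 170 and 70 times in Control 1, 2 and 3, and 80, 45 and 51 times in CIH 1, 2 and 3. The 3 counts of Control 1 are at the floor of 3 counts that a count of 0 would allow. Its levels were 36.0 ± 29.96 CPM (SD, n = 3) for the controls and 56.1 ± 7.84 CPM (SD, n = 3) for CIH, and Control 3 lay within the CIH range. The log2 fold change was 0.63 (standard error 0.92) with all libraries and 1.26 (standard error 0.90) without Control 3, with adjusted p-values of 0.889 and 0.349 in edgeR's quasi-likelihood test. Without Control 1 it was 0.15 (standard error 0.49), and against Control 3 alone it was -0.074 (standard error 0.36), a change of sign.

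miR-351-5p, which carries the seed of miR-125, was counted 10, 128 and 114 times in Control 1, 2 and 3, and 53, 77 and 60 times in CIH 1, 2 and 3. In normalized level these were 12.7, 30.9 and 102.8 CPM in the control group and 42.6, 83.2 and 65.1 CPM in the CIH group. Control 1 and Control 2 were below and Control 3 was above all CIH libraries, so that the control libraries lay on both sides of the CIH group. With all libraries the log2 fold change was 0.38 (standard error 0.84, edgeR adjusted p = 0.889). Against Control 3 alone it was -0.60 (standard error 0.46), a change of sign.

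miR-542-3p, the product of the first downstream hairpin and known to target the mRNA of survivin, an inhibitor of cell death, was counted 21, 2353 and 71 times in Control 1, 2 and 3, and 79, 40 and 28 times in CIH 1, 2 and 3. Its levels were 26.7, 567.7 and 64.0 CPM in the control group and 63.4, 43.2 and 30.4 CPM in the CIH group. Control 2 held 86.2% of the summed control level, Control 1 was below every CIH library, and Control 3 was close to CIH 1. The log2 fold change was -2.26 (standard error 1.19, edgeR adjusted p = 0.882) with all libraries and 0.081 (standard error 0.64) without Control 2. The lower mean of the CIH group with all libraries thus rested on Control 2. Control 3 was also above every CIH library, and against Control 3 alone the log2 fold change was -0.39.

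miR-450a-5p, the shared 5p product of Mir450-1 and Mir450-2, was counted 16, 355 and 53 times in Control 1, 2 and 3, and 69, 60 and 42 times in CIH 1, 2 and 3. Its means were 51.3 ± 32.8 CPM (SD, n = 3) and 55.3 ± 9.63 CPM (SD, n = 3), with a log2 fold change of 0.10 (standard error 0.66, edgeR adjusted p = 0.962). All CIH libraries lay between Control 1 and Control 2.

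The last hairpin, Mir450b, gave the 2 rarest members, and its arms are in capitals, 5p first, on GRCm38.p6 (chrX:53047997-53048078, minus strand).
Mir450b: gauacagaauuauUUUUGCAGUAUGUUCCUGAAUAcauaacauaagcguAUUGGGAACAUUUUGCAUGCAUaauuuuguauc
miR-450b-5p was counted 11, 138 and 8 times in Control 1, 2 and 3, and 16, 9 and 11 times in CIH 1, 2 and 3. Its means were 18.2 ± 13.5 CPM (SD, n = 3) and 11.5 ± 1.61 CPM (SD, n = 3), with Control 3 below every CIH library and Control 1 and Control 2 above. The place of Control 1 depended on the scaling. As CPM of library totals Control 1 was at 8.05, below the 10.1, 12.2 and 17.3 of CIH 1, 2 and 3. The log2 fold change was -0.67 (standard error 0.73, edgeR adjusted p = 0.882).

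miR-450b-3p, the member that the study took to RT-qPCR and reported as downregulated, was counted 6, 41 and 1 times in Control 1, 2 and 3, and 1 time in each of the 3 CIH libraries. Its levels were 7.64, 9.89 and 0.901 CPM in the control group and 0.803, 1.08 and 1.08 CPM in the CIH group. Control 1 and Control 2 were above all CIH libraries, and Control 3 was within them with the same single count. The log2 fold change with all libraries was -2.58 (standard error 1.08, edgeR unadjusted p = 0.05004 and adjusted p = 0.882), just above the unadjusted threshold. It was below that threshold with RLE factors (p = 0.0484), upper-quartile factors (p = 0.0279) and edgeR's exact test (p = 0.0446), but with no adjusted p-value under 0.05. It was above that threshold, at 0.0524 with DESeq2, 0.102 with library totals in edgeR, 0.108 with limma voom, 0.100 with limma on log2(CPM + 1) and 0.175 with an edgeR replicate block, and the adjusted p of these fits lay between 0.467 and 0.972.

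Single-digit counts set how closely this member can be read. The 1 count in CIH 1 has an exact 95% interval from 0.0160 to 3.53 CPM on the scale of library totals, and in CIH 3 the upper end was 8.75 CPM, above the 4.39 CPM of Control 1. The ratios that follow are instead on library sizes corrected by TMM. Summed over libraries, the 3 counts of the CIH group against the 48 of the control group gave a ratio of 0.122, with an interval for counting error from 0.0243 to 0.379. Against Control 1 and Control 2 the ratio was 0.102 (0.0203 to 0.316), and against Control 3 it was 1.08 (0.0864 to 56.5). These intervals treat reads as independent and leave out the spread between libraries.

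In the arms of Mir450b the 5p share was 64.7%, 77.1% and 88.9% in the controls, and 94.1%, 90.0% and 91.7% under CIH. The 3p share was lower in every CIH library than in every control library, and the intervals of Control 3 (51.8% to 99.7% for 5p) and the CIH libraries covered each other. The mean log2 ratio of 5p to 3p was 1.69 ± 0.84 (SD, n = 3) for the controls and 3.02 ± 0.40 (SD, n = 3) for CIH, a difference of 1.33 (two-sided exact permutation test, p = 0.1, the smallest that 3 against 3 allows). All 4 libraries with 1 count of the 3p arm had 8 to 16 counts of the 5p arm.

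**Figure D2:**
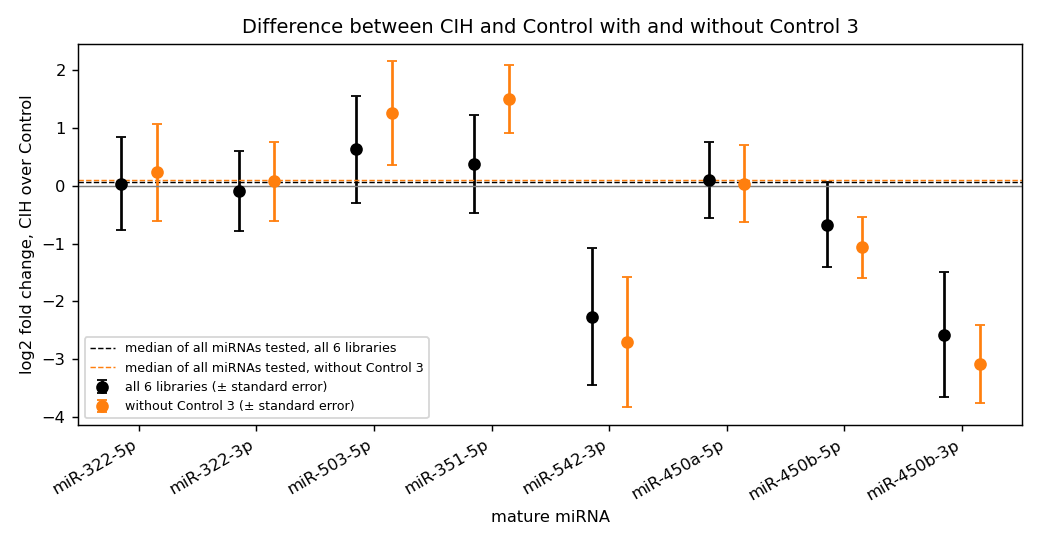
Log2 fold change of CIH over control (y axis) of each of the 8 mature miRNAs, with its standard error, for all 6 libraries (black) and without Control 3 (orange). Dashed lines are the medians of all 633 miRNAs tested, 0.07 and 0.10, and miR-450b-3p without Control 3, at -3.09, is the one value with an adjusted p-value under 0.05.

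The 8 members of the cluster together held 155, 5504 and 841 counts in Control 1, 2 and 3, and 798, 593 and 488 counts in CIH 1, 2 and 3. Other arms of these hairpins could not be found without names and are not in this sum. As CPM of the library total, this was 113.5, 1151 and 1061 for the controls, against 505.7, 804.1 and 766.1 under CIH. Control 1 was the lowest library and Control 2 and Control 3 the highest, with the CIH libraries between them. The means were 774.9 ± 574.6 (SD, n = 3) and 692.0 ± 162.4 (SD, n = 3) CPM, and the difference was within the spread of the control libraries.

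**Figure D3:**
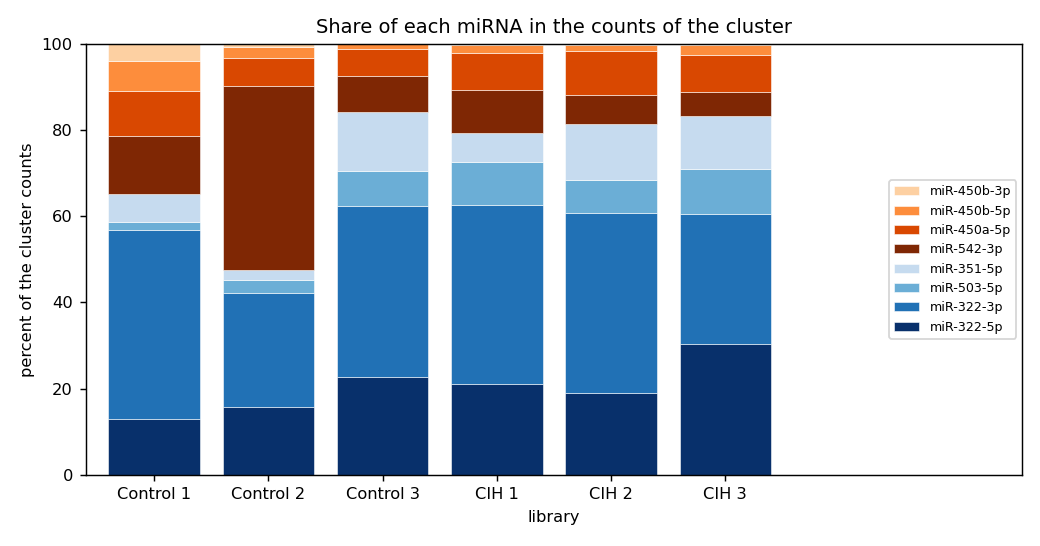
Share of each mature miRNA in the summed counts of the 8 members (y axis, percent) in each library (x axis), with the products of the upstream hairpins in blue and those of the downstream hairpins in orange. miR-542-3p takes 42.8% of the cluster in Control 2, and the 4 bars of Control 3 and the CIH libraries look alike.

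The makeup of the cluster, taken as these 8 members without other arms of the hairpins, also differed between libraries. miR-542-3p made up 13.5% of the cluster in Control 1 and 42.8% in Control 2, and 5.74% to 9.90% in the other 4 libraries. The 4 members from Mir542 and the Mir450 hairpins together took 34.8% (exact 95% interval 27.4% to 42.9%) of the cluster in Control 1 and 52.5% (51.1% to 53.8%) in Control 2. In Control 3 they took 15.8% (13.4% to 18.5%), and in the CIH libraries 20.7%, 18.5% and 16.8%. Control 3 was the lowest of all 6 libraries and its interval overlapped those of the 3 CIH libraries, so the groups overlapped. This split at the gap between Mir351 and Mir542 was chosen after the values were seen and has no test. The same 2 libraries, Control 1 and Control 2, were those with the fewest miRNAs detected.

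In normalized level, the upstream members summed to 128.5, 631.4 and 638.1 CPM in the controls, against 508.3, 521.8 and 440.3 CPM under CIH. The downstream members summed to 68.7, 696.5 and 119.9 CPM in the controls, against 132.5, 118.8 and 88.9 CPM under CIH. Control 1 was thus the lowest library in both sums. Control 2 was above all CIH libraries in both, but only in the downstream sum was it far above Control 3, to which it was close in the upstream sum.

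**Figure D4:**
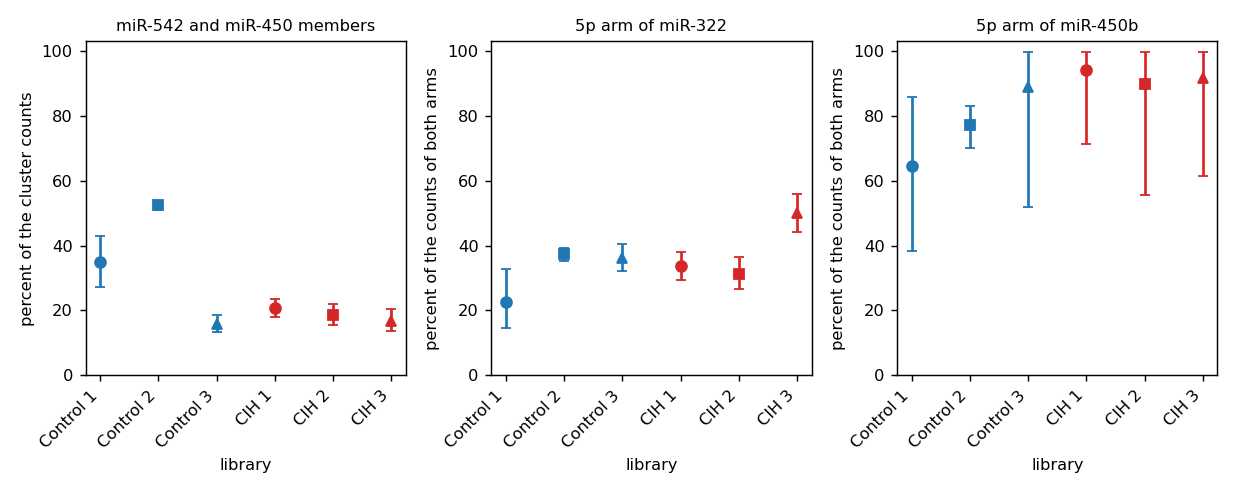
Share of the miR-542 and miR-450 members in the cluster counts (left) and share of the 5p arm in the counts of both arms of miR-322 (middle) and miR-450b (right), in percent, for each library with its exact 95% interval, with control libraries in blue and CIH libraries in red. In the left panel Control 1 and Control 2, at 34.8% and 52.5%, lie above the other 4 libraries, and in the right panel the intervals of the libraries with 1 count of the 3p arm are wide.

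Within the CIH group the cluster was even. The coefficient of variation of the 7 members with a mean of at least 10 CPM lay between 14.0% and 36.5% in the CIH group, with a median of 17.4%, and between 57.0% and 138% in the control group, with a median of 74.5%. Over all 395 miRNAs of that level the medians were 27.6% and 84.1%, so the wider spread of the control group was not particular to the cluster. By mean level in the CIH group the order was miR-322-3p, miR-322-5p, miR-351-5p, miR-503-5p, miR-450a-5p, miR-542-3p, miR-450b-5p and miR-450b-3p. The 4 from miR-351-5p to miR-542-3p lay between 63.6 and 45.7 CPM with SDs of 7.84 to 20.4 CPM, and neighbours among them did not differ beyond that spread. Such levels between miRNAs also depend on ligation, which differs between sequences.

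Over the 6 libraries, the log2 CPM of the upstream members moved closely together, with Pearson correlations from 0.620 to 0.938 over 6 pairs. The 6 pairs of downstream members ranged from -0.16 to 0.798 and the 16 pairs across the gap from -0.80 to 0.923. The highest value across the gap joined miR-322-3p to miR-450a-5p, and the lowest joined miR-351-5p to miR-450b-3p. The 6 points share library depth and scaling, and Control 1 and Control 2 lie at their ends, so these values are descriptions only. Of 388 other miRNAs that averaged 10 CPM or more, the one closest to the mean log2 CPM of the 8 members was MIMAT0004704 (Pearson r = 0.987 over 6 libraries), followed by MIMAT0003170 (r = 0.975). No name was at hand for either accession. The mean did not stand for all 8 members alike. miR-450b-3p correlated with it at -0.0084, miR-450b-5p at 0.430 and miR-351-5p at 0.454, and the other members at 0.745 to 0.953.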

How the data were processed

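Small RNA was sequenced in 3 control and 3 CIH libraries from WAT of ApoE-deficient mice. The authors deposited raw read counts of 707 mature miRNAs by accession. How reads were trimmed, aligned and assigned, and to which release of miRBase, is not given in the sources used here, and reads of near-identical arms may be divided or counted together. Names were known for the 8 members alone, so seed relatives, other arms of these hairpins and marker miRNAs of other cell types were not analysed here in the counts. No pair of libraries agreed within counting noise.

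From the counts, miRNAs with at least 10 counts in all were tested with edgeR 4.0.16 (R 4.3.3) by its quasi-likelihood test, with TMM factors, a model of group alone and Benjamini-Hochberg adjustment over all miRNAs tested. Each standard error is the size of the log2 fold change divided by the root of the F statistic. Calls used an adjusted p-value under 0.05, or an unadjusted one under 0.05, the study's level of significance, with at least 1.5-fold. With a library left out, the same miRNAs were tested where they had a count. Log2 CPM used a prior count of 2. Intervals are exact (Clopper-Pearson) at 95%. The alternatives used DESeq2 1.42.0 and limma 3.58.1, other factors, filters, a replicate block and each library left out. Scripts were tested on simulated data with 200 miRNAs changed 8-fold. No simulated library stood apart as Control 1 and Control 2 do, so these runs do not show how the tests behave with such controls. Python 3.11.15, scipy 1.17.1 and matplotlib 3.10.9 were used for the shares and plots.

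The rule for naming took all 8 members and the 5 miRNAs of at least 10 CPM closest to their mean over the 6 libraries, of which the first 2 are given, by accession. It also took seed relatives and other products of these hairpins, which could not be found without names. The members, lists and tests were chosen with earlier results of these data known.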

Additional observations from a re-analysis of the deposited data

How the results depend on the processing

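With all 6 libraries, 0 members had an adjusted p-value under 0.05 in every alternative run, and leaving out each library in turn gave 0 to 1, where the 1 was miR-450b-3p without Control 3. RLE or upper-quartile factors without Control 3 also gave 1, and library totals without Control 3 gave 0. Without Control 3, all miRNAs called came to 18.6% with TMM, 19.1% with RLE, 25.4% with upper-quartile factors and 19% with library totals. At the unadjusted criteria the members lower in CIH numbered 1 with RLE factors, 1 with upper-quartile factors and 1 with edgeR's exact test (miR-450b-3p each time), and 0 to 1 with each library left out, where the 1 was miR-542-3p without Control 1 (log2 fold change -2.81) and miR-450b-3p without Control 3. Without Control 3 they numbered 1 with RLE factors, 1 with library totals and 3 with upper-quartile factors. The members higher in CIH numbered 0 to 1 with each library left out, the 1 being miR-351-5p without Control 3, and 1 without Control 3 with RLE factors or library totals. The cause was not tested. Settings that join the loss of Control 3 to another scaling, or leave out Control 1 and Control 2 together, were chosen after seeing the data. So was the weight given above to the run without Control 3.

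Of 164 log2 fold changes of members under these alternatives, 27 changed sign, none with an adjusted p-value under 0.05. With upper-quartile factors miR-322-5p was at -0.56 and miR-450a-5p at -0.57, and the median of all miRNAs was -0.52. With the filterByExpr filter miR-322-5p was at -0.034. miR-322-3p was at 0.0052 with library totals, 0.030 with at least 10 counts in every library, 0.051 with limma voom and 0.10 with limma on log2(CPM + 1). Dropping single libraries gave ranges of -0.42 to 0.59 for miR-322-5p, -0.47 to 0.33 for miR-322-3p, -0.0021 to 1.51 for miR-351-5p, -2.81 to 0.081 for miR-542-3p, -0.27 to 0.77 for miR-450a-5p, -1.06 to 0.19 for miR-450b-5p, 0.15 to 1.26 for miR-503-5p and -3.09 to -1.88 for miR-450b-3p. Without Control 3, miR-322-3p was at 0.16 with RLE factors and 0.55 with library totals, and with upper-quartile factors miR-322-5p was at -0.64 and miR-450a-5p at -0.83. Without Control 1 and Control 2, where Control 3 is assumed to vary like the CIH libraries, miR-322-5p was at -0.20, miR-503-5p at -0.074, miR-351-5p at -0.60, miR-450b-5p at 0.76 and miR-450b-3p at 0.18.

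Control and CIH libraries share replicate numbers in the labels, but no source says that a number marks a common animal or day. Departures from the group mean correlated at 0.353, -0.12 and 0.0195 between libraries of equal number, so no pairing was assumed. A replicate block gave 0 members called, with miR-322-3p at 0.074. The arm differences kept their sign, from 0.04 to 0.61 for miR-322 and from 0.90 to 1.74 for miR-450b with each library left out, where the smallest possible p of the exact test is 0.2, and were 0.39 and 1.11 with 1 count added. The difference in the share of the cluster, -82.9 CPM, became -414 to 105 when single libraries were dropped (105 without Control 2, 59.9 without Control 3, 10.2 without CIH 1), and -181 when the 5 most abundant miRNAs were taken out of the total. The share of miR-322-5p in its seed family was not run, for want of names for the other accessions. The filterByExpr filter removed miR-450b-3p, while requiring 10 counts per library removed miR-450b-3p, miR-450b-5p and miR-503-5p. The single count of miR-450b-3p in each of 4 libraries sets the width of its intervals, and whether depth accounts for it was not tested.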
